A study of Arabidopsis thaliana with 6 samples.

Results

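The nuclear genes whose deposited description names a ribosomal protein L or S with a number, on chromosomes 1 to 5, numbered 285 of the 22446 genes listed for the first high light pair. By the deposited annotation, 155 belonged to the cytosolic ribosome, 87 in the large and 68 in the small subunit, and together they made up 61 protein families. A further 31 were annotated to the plastid and 15 to the mitochondrion, 43 were of bacterial type with no compartment given, and 3 lay in a copy of mitochondrial genome sequence on chromosome 2. The remaining 38 only share a domain with ribosomal proteins, among them elongation factor 2 (LOS1) and the ClpS1 adaptor of the plastid protease.

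Ribosomes are built from RNA and a fixed set of proteins, and an Arabidopsis leaf cell makes them for 3 compartments. The cytosolic ribosome has a large (60S) and a small (40S) subunit, and nearly every one of its proteins is encoded by a small family of near-identical nuclear genes, called paralogs. Chloroplast (plastid) and mitochondrial ribosomes are of bacterial type, and most of their proteins are also encoded in the nucleus and imported. Cytosolic ribosomal protein genes are known for high transcript levels in growing tissue and for being expressed together, while plastid ribosomal protein genes follow chloroplast build-up.

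Messenger RNA came from rosette leaves of Columbia plants, either wild type (WT) or carrying ibm1-3, an allele of the histone demethylase gene IBM1. In low light, 1 library per genotype was made at an age of 40 days. In high light, 2 libraries per genotype were made at 30 days, after 48 hours of treatment, and each numbered pair of WT and ibm1-3 was deposited in a table of its own. Titles and column names give this pairing, while the description field ties both WT samples to the first table and both ibm1-3 samples to the second, and the titles were followed. Genotypes were compared within pairs, so p-values of the main high light fit rest on how far the 2 pair ratios differ, with variance information shared across genes. No label says whether the numbered libraries came from separate plants, so this spread may be technical.

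The low light libraries held 15425082 reads (WT) and 13099267 reads (ibm1-3), and the first high light pair 12121246 and 12502408 estimated fragments, while the depth of the second pair is not given. IBM1 itself stood at 13.81 FPKM (fragments per kilobase of transcript, scaled to library size) in WT and 17.6 in ibm1-3 in the first high light pair, at 8.34 and 7.46 in the second, and at 643 and 399 reads in low light. It was thus not lower in both libraries labelled ibm1-3 after high light, and it does not check those labels. The circadian clock gene CCA1 stood at 284.08 and 225.17 FPKM in the WT high light libraries and at 10.68 and 7.09 FPKM in those labelled ibm1-3. In low light CCA1 had 2032 reads in WT and 2021 in ibm1-3. Whether clock phase or hour of harvest differed with genotype in high light, and its part in the ribosomal results, was not tested. The 5 mesophyll markers, which include the Rubisco small subunit and Rubisco activase, summed to 19622.8 and 30997.3 FPKM in the WT high light libraries and to 3928.95 and 6904.55 FPKM in those labelled ibm1-3. All 5 fell, and because FPKM is a share of the library, their part in the ribosomal results was not tested. Of 12 markers of dividing cells, 3 reached 1 FPKM in any high light library.

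Upstream sequences of 3 genes are shown first, to show which of them hold the short elements that plant ribosomal protein promoters are known for. These are the telo box core (AAACCCT) and site II (TGGGCC or TGGGCT), searched on both strands in the 250 bases before each RefSeq gene start of the TAIR10.1 assembly. The S9e proteins of the small subunit have a pair of paralogs that differed widely in their response to genotype, and emb2394 encodes L6 of the plastid large subunit and fell. Matches are in capitals, each line runs 5′ to 3′ on the gene's strand, and the gene starts after the last base.

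AT5G39850 (S9e), chr5:15949660-15949909, plus strand: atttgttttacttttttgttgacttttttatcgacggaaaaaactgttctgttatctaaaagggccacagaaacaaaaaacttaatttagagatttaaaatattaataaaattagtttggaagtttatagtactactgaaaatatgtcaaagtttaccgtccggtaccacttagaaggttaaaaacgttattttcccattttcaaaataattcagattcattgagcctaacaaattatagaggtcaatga
AT5G15200 (S9e), chr5:4936430-4936679, minus strand: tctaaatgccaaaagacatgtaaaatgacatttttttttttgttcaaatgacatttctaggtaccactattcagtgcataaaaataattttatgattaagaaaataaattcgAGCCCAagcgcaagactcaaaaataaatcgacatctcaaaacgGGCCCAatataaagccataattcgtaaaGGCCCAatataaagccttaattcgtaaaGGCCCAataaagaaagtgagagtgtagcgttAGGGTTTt
AT1G05190 (emb2394, plastid L6), chr1:1503854-1504103, minus strand: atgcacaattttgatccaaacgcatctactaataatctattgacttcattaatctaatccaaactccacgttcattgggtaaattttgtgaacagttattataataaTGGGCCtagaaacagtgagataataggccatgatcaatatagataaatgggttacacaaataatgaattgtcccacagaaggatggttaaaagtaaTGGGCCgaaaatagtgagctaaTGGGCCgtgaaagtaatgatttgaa

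The lines show 4 site II matches and 1 telo box core in AT5G15200, 3 site II matches in emb2394 and no match in AT5G39850. A match is a description of the letters and not a bound site, and no match says only that these letters are not in this window. Site II was present before 105 of the 150 cytosolic genes tested, or 70.0%, against 23.1% of the 17276 promoters of all genes tested, and the telo box core before 23.3% against 6.28%. Of the 31 plastid promoters, 12 held site II and 3 the telo box core. Site II stood before 19 of the 42 bacterial-type genes without a compartment and 6 of the 14 mitochondrial ones. The G box (CACGTG) was present before 2 of the 150 cytosolic genes against 7.62% of all promoters.

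After high light, cytosolic ribosomal protein genes were higher in the libraries labelled ibm1-3 and plastid ones lower. Of the 150 cytosolic genes with enough signal to test, 146 rose, 1 fell and 3 did not pass (limma on log2(FPKM + 1), Benjamini-Hochberg adjusted p under 0.05 over 17399 genes). Of all genes tested, 49.2% were called higher and 26.0% lower. The median log2 fold change was 1.01 for cytosolic genes and 0.25 for all genes. By subunit, 83 of 85 large subunit genes rose with a median of 1.04, and 63 of 65 small subunit genes with a median of 0.98. Of the 31 plastid genes, 25 fell, 3 rose and 3 did not pass, with a median of −0.88.

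The direction was the same in both pairs for nearly all members. In the first pair the median log2 ratio was 1.01 over cytosolic and −0.94 over plastid genes, and in the second 1.02 and −0.89. Both pairs were higher for 146 of the 150 cytosolic genes against 58.4% of all genes, and both lower for 25 of the 31 plastid genes against 32.8%. Calls depended on fitting the pair as a block: without it, 62 cytosolic genes were called higher, where 18.2% of all genes were, and 6 plastid genes lower, where 8.4% of all genes were. With any 1 library left out, far fewer genes of either class were called. When either WT library was left out, the shares of cytosolic genes called higher and of plastid genes called lower were below those of all genes. The medians in these fits stayed between 0.90 and 1.18 for cytosolic and between −0.97 and −0.55 for plastid genes. Scaled by size factors in place of FPKM totals, the median of all genes moved to −0.04, that of cytosolic genes to 0.70 and that of plastid genes to −1.20, and 138 cytosolic genes were called higher and 4 lower against 6063 and 6733 of 17305 genes in all, with 27 plastid genes lower against 38.9%.

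**Figure D1:**
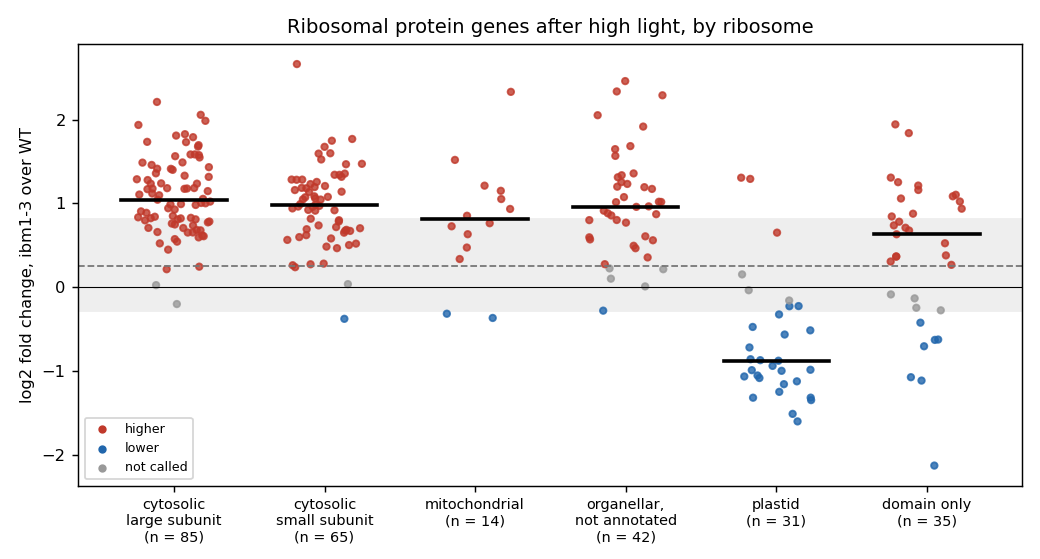
Log2 fold change (ibm1-3 over WT, limma on log2(FPKM + 1)) of each ribosomal protein gene after high light, by the ribosome it is annotated to, with the class median as a black bar and the median and quartiles of all 17399 genes as a dashed line and grey band. Points are coloured by whether the adjusted p passed 0.05, and 25 of the 31 plastid points are called lower where 146 of the 150 cytosolic points are called higher.

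In abundance, cytosolic ribosomal protein genes held 1.08% of the FPKM sum in both WT high light libraries and 2.18% in both labelled ibm1-3. The ratio between genotypes was 2.02 in the first pair and 2.02 in the second. Plastid ribosomal protein genes held 0.606% and 0.675% in WT and 0.342% and 0.391% in ibm1-3. In neither class did the genotypes overlap, with 2 libraries each. In low light, with another table and older plants, the same shares per length were 3.39% in WT and 3.41% in ibm1-3 for cytosolic genes, and 0.271% and 0.283% for plastid genes. After high light the WT libraries held the lowest cytosolic and the highest plastid shares of the 6 libraries. Light, age and table cannot be told apart in this order, and in bulk leaf RNA fewer cells of a type and less RNA per cell cannot be told apart either.

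**Figure D2:**
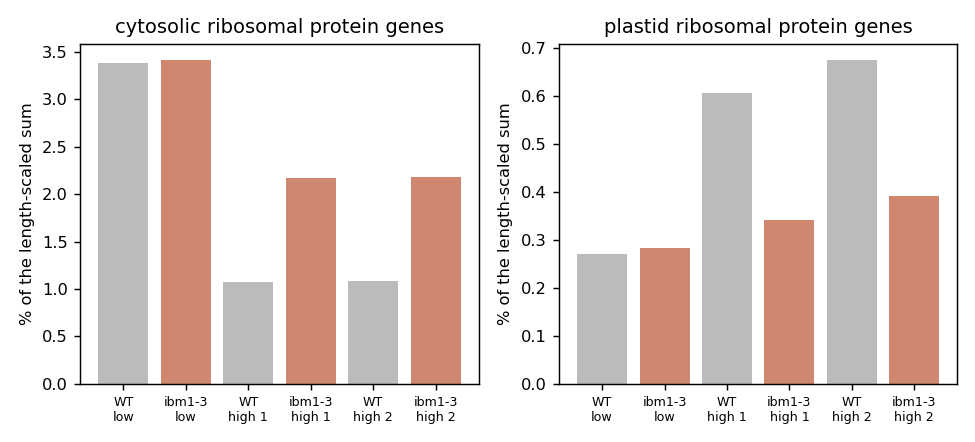
Share (%) of the summed FPKM (high light) or summed reads per gene length (low light) held by the cytosolic genes (left) and plastid genes (right), 1 bar per library, WT in grey and ibm1-3 in orange. After high light the cytosolic bars are 1.08% in WT and 2.18% in ibm1-3, and the plastid bars are lower in ibm1-3 in both pairs.

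Because paralogs of 1 protein are nearly identical, reads may be divided between them by the counting, so their FPKM was also summed per protein. All 61 family sums were higher in ibm1-3 after high light (limma, adjusted p under 0.05), with log2 fold changes from 0.50 to 1.70 and a median of 0.96. Of all genes tested singly, 49.2% were called higher. Without the pair as a block, 20 of the 61 family sums passed, where 18.2% of all genes were called higher. With 1 library left out, the lowest family value was −0.14 without the first WT library and −0.27 without the second ibm1-3 library. Not every sum was thus above 0 in those fits. At the top of the large subunit stood L13e (1.70 ± 0.07 SE), L5e (1.62 ± 0.06) and L7Ae (1.497 ± 0.06), and L5e binds the 5S RNA of the ribosome together with L11e (1.28 ± 0.08). High in the small subunit were S7e at 1.28 ± 0.06 and S4e at 1.25 ± 0.06. The smallest rises were those of S19e (0.50 ± 0.06), S15Ae (0.51 ± 0.06) and L6e (0.52 ± 0.06). S6e, whose protein is phosphorylated by S6 kinase, rose by 0.88 ± 0.06, and LP0, the base of the stalk that recruits translation factors, by 0.65 ± 0.06.

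**Figure D3:**
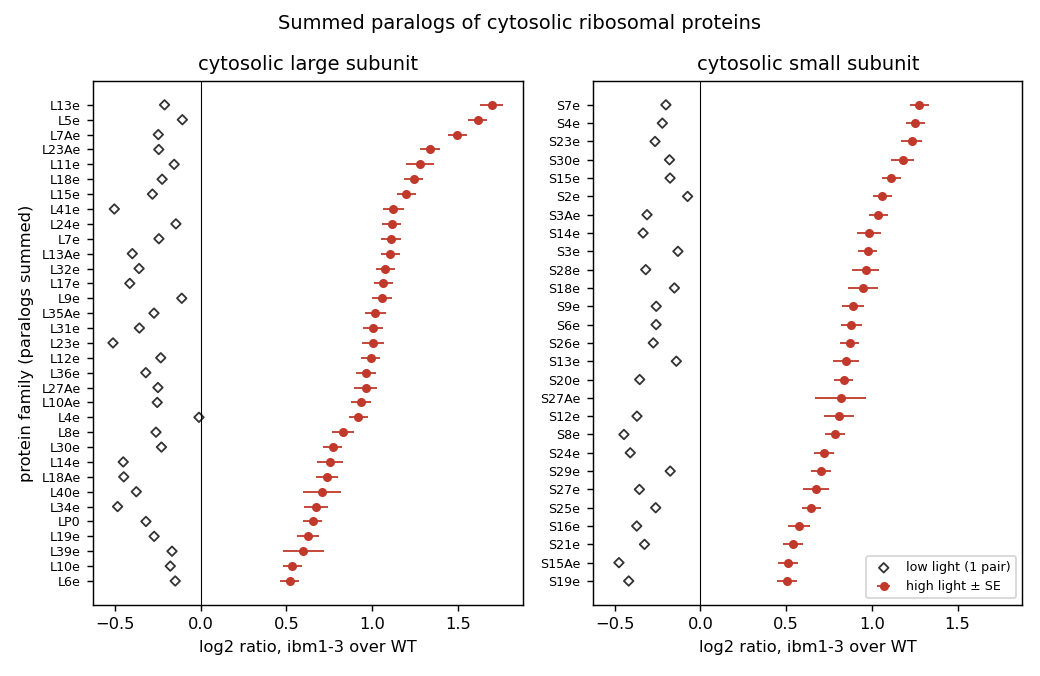
Log2 ratio (ibm1-3 over WT) of the summed paralogs of cytosolic ribosomal proteins, after high light (red, ± SE of the limma fit, n = 2 per genotype) and in low light (open diamonds, 1 library per genotype, TMM scaling, no error). All 60 red points shown lie above 0, from 0.50 to 1.70, and all 59 diamonds lie below it. Scaled by library totals, 30 of the 60 low light sums lie below 0. A sum holds only the paralogs that the rule matched, which for some proteins is 1 gene.

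Single cytosolic genes ranged from −0.38 to 2.66 on the log2 scale, a wider range than the family sums. The S9e gene AT5G39850 (chromosome 5, 15949910 to 15951475, TAIR10) stood at 0.96 and 3.15 FPKM in WT against 14.71 and 19.8 in ibm1-3. The genotypes did not overlap, and its log2 fold change of 2.66 ± 0.17 SE was the highest among all cytosolic members (limma, adjusted p = 5.13e-06). Its paralog AT5G15200 stood at 44.09 and 70.23 FPKM in WT against 65.75 and 123.46 in ibm1-3. Here the libraries of the genotypes overlapped across pairs, and the fold change within pairs was 0.69 ± 0.07 (adjusted p = 9.65e-05). AT5G15200 thus supplied most S9e transcript in every high light library.

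RPL23AB (AT3G55280) and RPL23AA (AT2G39460) encode L23Ae, which lies at the exit of the tunnel through which new proteins leave. RPL23AB was at 9.50 and 16.08 FPKM in WT against 57.29 and 65.05 in ibm1-3, and its log2 fold change of 2.21 ± 0.12 was the highest in the large subunit (limma, adjusted p = 2.36e-06). RPL23AA, the more abundant copy in WT, was at 81.77 and 70.58 FPKM in WT against 182.21 and 148.99 in ibm1-3, giving a log2 fold change of 1.11 ± 0.06. For both genes every ibm1-3 library lay above every WT library.

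The other large subunit genes at the top were AT3G28900 (L34e) at 2.06 ± 0.21, AT2G37600 (L36e) at 1.99 ± 0.09 and AT1G27400 (L17e) at 1.94 ± 0.07. AT3G28900 shared 28.2% of its 50-base stretches with other genes, so its reads may be divided with a copy. In the small subunit, AT2G40590 (S26e, 1.77 ± 0.09) and AT5G16130 (S7e, 1.75 ± 0.07) followed AT5G39850. AT5G16130 went from 18.94 and 27.03 FPKM in WT to 62.87 and 97.92 FPKM in ibm1-3, with no overlap.

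Of the 2 most abundant genes of each cytosolic subunit, 3 of the 4 had a fold change below the cytosolic median. Emb2386 (AT1G02780, L19e) stood at 276.88 and 174.69 FPKM in WT against 448.29 and 306.2 in ibm1-3, giving a log2 fold change of 0.75 ± 0.06. AT5G20290 (S8e) stood at 221.46 and 183.04 FPKM in WT against 377.78 and 319.84 in ibm1-3, giving a log2 fold change of 0.78 ± 0.06. In both genes the genotypes did not overlap. AT1G67430 (L17e) and AT5G56670 (S30e), the next by mean FPKM in each subunit, rose by 0.89 ± 0.06 and 1.21 ± 0.06 on the log2 scale.

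RPS15AD (AT3G46040), a gene for S15Ae, was the single cytosolic member called lower. It stood at 58.9 and 64.88 FPKM in WT against 45.53 and 49.34 in ibm1-3, giving a log2 fold change of −0.38 ± 0.06 (limma, adjusted p = 0.000893, and 0.197 without the pair as a block). Its paralogs RPS15A (0.50 ± 0.06), rps15ae (1.05 ± 0.13) and AT5G59850 (1.14 ± 0.08) rose. The next smallest values were those of RPL34 (AT1G69620, 0.22 ± 0.06), AT4G33865 (S29e, 0.24 ± 0.08), AT4G02230 (L19e, 0.25 ± 0.07), AT5G27700 (S21e, 0.26 ± 0.07) and AT4G39200 (S25e, 0.27 ± 0.06). These 5 passed the threshold here and turned slightly negative with size factors, from −0.11 to −0.05, where none of them passed. With 1 library left out AT4G33865 ranged from −0.61 to 1.09, AT5G27700 from −0.57 to 1.10 and AT4G02230 from −0.22 to 0.72, so the direction of these 3 rests on comparing within pairs. AT4G31985 (L39e, 0.45 ± 0.12) lost its call under that scaling, and SAC52 (AT1G14320, L10e, 0.52 ± 0.06), which is linked to the thermospermine growth pathway, kept it.

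Some families were split by paralog. In L34e, RPL34 stood at 131.1 to 133.31 FPKM in WT and 153.43 to 153.91 FPKM in ibm1-3, while AT1G26880, which shares 41.5% of its 50-base stretches with other genes, rose by 1.18 ± 0.08 and AT3G28900 by 2.06 ± 0.21. In S19e, AT3G02080 was at 52.46 and 66.55 FPKM in WT against 49.48 and 74.39 in ibm1-3 and did not pass (adjusted p = 0.663, and with size factors −0.28 at 0.00601), while AT5G61170 rose by 1.36 ± 0.09. In L18Ae, RPL18AA (AT1G29970) had a log2 fold change of −0.20 ± 0.10 that did not pass (adjusted p = 0.110, and with size factors −0.52 at 0.00155), AT2G34480 rose by 0.80 ± 0.07 and AT3G14600 by 0.81 ± 0.06. The fourth L18Ae gene, AT1G29965 (1.79 ± 0.12), overlaps RPL18AA on the same strand and shares 83.4% of its 50-base stretches with other genes, so the values of this pair are uncertain.

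**Figure D4:**
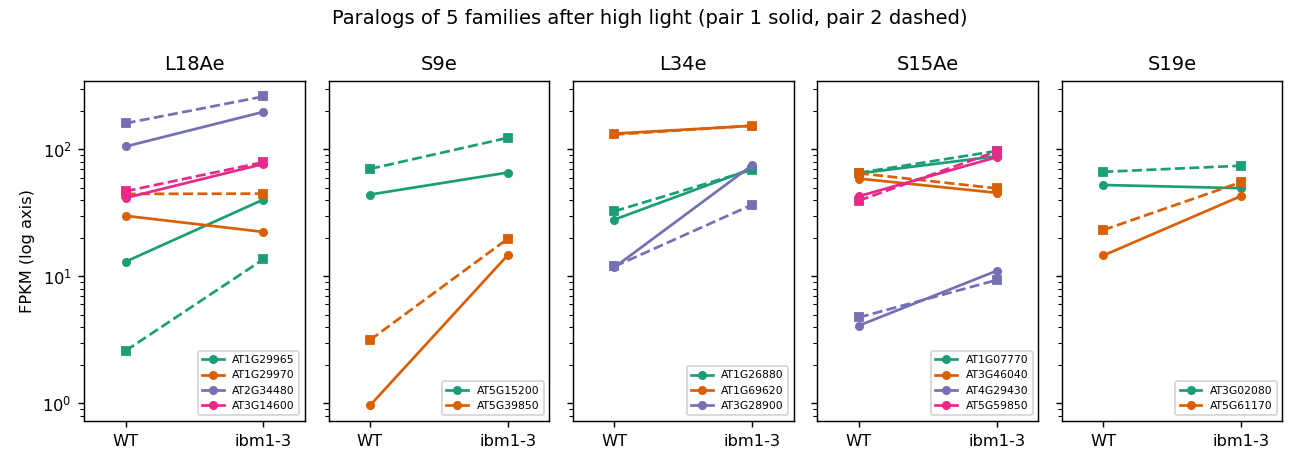
FPKM (log axis) of the paralogs with a mean of at least 5 FPKM in the 5 cytosolic families with the widest spread of fold changes, WT to ibm1-3 after high light, pair 1 as solid and pair 2 as dashed lines. In S9e the gene at 0.96 and 3.15 FPKM in WT climbs to 14.71 and 19.8 FPKM, while its paralog stays the more abundant one.

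Across the families, the copy that dominated in low light often had a smaller fold change than its paralogs after high light. In 37 of 52 families with at least 2 measured paralogs, the gene with the highest level per length in the WT low light library had a smaller high light fold change than the median of its paralogs. The median log2 fold change was 0.84 for these dominant copies and 1.16 for the others. Adding 1 FPKM before the logarithm understates the change of low genes. By promoter element, the median cytosolic log2 fold change was 0.98 with site II (105 genes) and 1.06 without it (45 genes), and 0.98 with the telo box core (35 genes) and 1.02 without it (115 genes). Genes that shared over 20% of their 50-base stretches with another gene numbered 17 and had a median of 1.09, against 1.01 for the other 133.

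The plastid genes that fell covered both subunits. EMB3126 (AT3G63490), which encodes L1, had the highest mean FPKM over the high light libraries. It stood at 432.2 and 448.19 FPKM in WT against 171.27 and 180.83 in ibm1-3, giving a log2 fold change of −1.32 ± 0.06 (limma, adjusted p = 7.46e-07). Emb2394 (L6) stood at 467.84 and 296.2 FPKM in WT against 201.91 and 137.25 in ibm1-3, giving a change of −1.16 ± 0.06. In the first pair emb2394 was above EMB3126 in both genotypes. GHS1 (AT3G27160), the S21 gene named for a glucose hypersensitive mutant, stood at 133.5 and 128.2 FPKM in WT against 46.6 and 43.97 in ibm1-3, giving a change of −1.51 ± 0.06. For all 3 genes every ibm1-3 library lay below every WT library.

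The largest fall was that of AT1G29070 (L34) at −1.60 ± 0.10, and AT1G64510 (S6) fell by 1.35 ± 0.06 on the log2 scale. Further down, AT5G47190 (L19) fell by 0.22 ± 0.07. RPL9 (0.15 ± 0.06, adjusted p = 0.0504), RPL12-C (−0.04 ± 0.07) and AT5G63300 (−0.16 ± 0.17) did not pass. With size factors RPL9 turned to −0.17 and RPL12-C to −0.36, and both were called lower. RPL12-A, the other measured stalk gene, went from 168.58 and 354.93 FPKM in WT to 73.86 and 178.76 FPKM in ibm1-3, giving a change of −1.08 ± 0.07. The difference between these stalk genes was not tested, and they share over 20% of their 50-base stretches with another gene.

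All 3 genes annotated to the plastid that rose have a counterpart of the same protein number that fell. The compartment of these 3 is taken from annotation and was not tested, and RPL3P is placed by its description with no location noted. RFC3 (AT3G17170), an S6-type gene named for altered fatty acid composition in roots, was at 17.54 and 11.0 FPKM in WT against 50.13 and 25.15 in ibm1-3, giving a rise of 1.29 ± 0.10, where the S6 gene AT1G64510 fell. AT2G20060 (L4) rose by 1.31 ± 0.09 where RPL4 fell by 0.87 ± 0.06. RPL3P (AT3G17465, L3) rose by 0.65 ± 0.10 while AT2G43030 (L3) had a change of −0.997 ± 0.06. The L3 and L4 genes that fell were the more abundant of their couple in every high light library, and so was AT1G64510 except in the first ibm1-3 library, where it had 38.09 FPKM.

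Most mitochondrial genes were higher. Of 14 tested, 12 rose and 2 fell, with a median of 0.81, and 37 of the 42 tested bacterial-type genes without a compartment rose, 1 fell and 4 did not pass, with a median of 0.96. These compare with 49.2% of all genes called higher and 26.0% lower. Without the pair as a block 2 of the 14 and 22 of the 42 were called higher against 18.2% of all genes, so the mitochondrial count was then below that share. With any 1 library left out the median ranged from 0.62 to 1.02 for the mitochondrial genes. For those without a compartment it ranged from 0.95 to 1.01. AT5G39800 (L41) went from 1.23 and 1.52 FPKM in WT to 9.59 and 12.46 FPKM in ibm1-3, giving a log2 fold change of 2.33 ± 0.12 (limma, adjusted p = 2.21e-06). AT4G28360 (L22) rose by 1.52 ± 0.12, NFD1 (L21), known from a mutant with failed fusion of nuclei, by 1.15 ± 0.12, and AT1G77750 (S13) by 1.05 ± 0.18.

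The mitochondrial gene with the highest mean FPKM over the high light libraries, AT2G21290 (S31), went the other way. It was at 35.97 and 50.02 FPKM in WT against 32.46 and 35.41 in ibm1-3, giving a log2 fold change of −0.32 ± 0.09 (limma, adjusted p = 0.0150). In the second ibm1-3 library another mitochondrial gene was higher, at 52.29 FPKM. RPS14 (AT2G34520) had −0.37 ± 0.10, and leaving out the first ibm1-3 library brought it to 0.01. AT1G70190 (L7/L12) and MRPL11 (AT4G35490) rose by 0.34 ± 0.10 and 0.47 ± 0.08, and neither passed with size factors (0.05 and 0.16). Of the 3 genes in the copy of mitochondrial sequence, 2 were called higher, and their reads cannot be told apart from those of the mitochondrial genome. Of the 35 tested genes that only share a domain, 24 rose and 7 fell, with a median of 0.63. For both groups the shares of all genes were 49.2% called higher and 26.0% lower. Without the pair as a block, 8 of the 35 were called higher and 2 lower, against 18.2% and 8.4% of all genes.

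In low light, with 1 library per genotype and no test, the classes stood in another order. Over the 148 cytosolic genes with at least 50 reads the median log2 ratio (ibm1-3 over WT, TMM scaling) was −0.25, and 127 were below 0, while 50.9% of all 16509 genes measured were above 0. None of the 148 differed by 2-fold or more, where 5.66% of all genes were at least 2-fold higher and 9.74% at least 2-fold lower. The plastid median was −0.30 over 30 genes, the mitochondrial median 0.19 over 15, and the median of the bacterial-type genes without a compartment 0.24 over 41. Scaled by library totals the all-gene median moved from 0.01 to 0.27 and the cytosolic median to 0.01, so the sign of the cytosolic value rests on the scaling. All 60 cytosolic family sums lay below the all-gene median, a count that a scaling factor per library cannot change.

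Among the 144 cytosolic genes called higher after high light and measured in low light, 123 were below 0 in low light and 21 above with TMM scaling. With library totals, 66 of the 148 cytosolic genes measured were below 0 and 82 above. Of the 25 plastid genes called lower, 22 were below 0 in low light with TMM scaling, where 8106 of all 16509 genes were. With library totals, 19 of the 30 plastid genes measured were below 0 and 11 above, with a median of −0.04. Of all 16509 genes, 4962 were then below 0. AT5G39850, which had the highest cytosolic rise in high light, was also among the highest in low light, with 426 reads in WT against 762 in ibm1-3, giving a log2 ratio of 0.81 (95% Clopper-Pearson interval 0.64 to 0.99). Its paralog AT5G15200 had 4713 and 3614 reads, a log2 ratio of −0.41 (−0.47 to −0.35). Intervals cover counting error only.

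The lowest low light ratios were those of the L41e genes AT3G11120 (1495 reads in WT against 819 in ibm1-3, giving a log2 ratio −0.89, interval −1.02 to −0.77) and AT2G40205 (−0.77, with 61.0% of its stretches shared), of RPL18AA (−0.76) and of AT5G19025, a gene of the L34e superfamily (−0.76). The highest, beside AT5G39850, were AT3G12915, a gene of the elongation factor G family that shares 87.0% of its 50-base stretches with another gene (156 and 315 reads, 0.98, interval 0.71 to 1.27), RFC3 (107 and 192 reads, 0.81, interval 0.47 to 1.17) and AT4G36420, an L12 gene of bacterial type (0.81, interval 0.55 to 1.07). AT4G36420 and AT3G12915 were also called higher after high light, at 1.17 ± 0.09 and 0.85 ± 0.14. AT1G24240 (L19) was listed at 0 in WT, where genes under 15 reads are set to 0, and had 77 reads in ibm1-3, so its log2 ratio against the floor of 14 reads was at least 2.35.

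**Figure D5:**
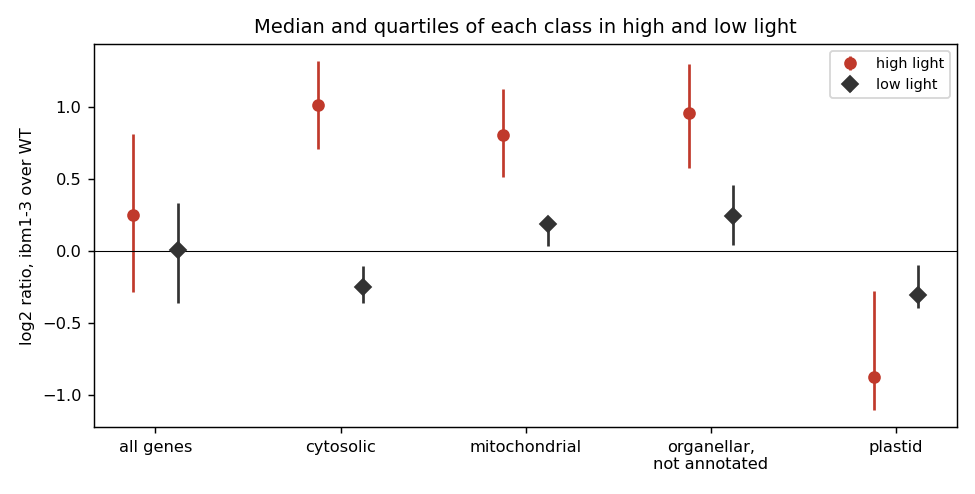
Median (points) and quartiles (bars) of the log2 ratio (ibm1-3 over WT) over the genes of each class, after high light (red, fit over 2 pairs) and in low light (dark diamonds, 1 pair, TMM scaling). The cytosolic median is 1.01 in high light and −0.25 in low light (0.01 with library totals), while the plastid median is below 0 in both.

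Genes that build and use ribosomes are set beside the ribosomal proteins from lists chosen by function. The lists overlap the members: NHP2 (AT5G08180) is also on the biogenesis list, and LOS1 and AT5G19510 are also on the translation factor list. Of 40 ribosome biogenesis genes, 35 rose after high light, 2 fell and 3 did not pass, with a median of 1.02, where 49.2% of all genes were called higher. NOP5-1, a core protein of the particles that methylate ribosomal RNA, went from 4.61 and 3.85 FPKM in WT to 45.95 and 35.59 FPKM in ibm1-3, giving a log2 fold change of 2.99 ± 0.09 (limma, adjusted p = 1.55e-07). FIB2, a gene for fibrillarin, which carries out the methylation, rose by 2.72 ± 0.11 from 2.84 and 2.55 FPKM in WT. FIB1, the more abundant fibrillarin gene at 80.98 and 61.63 FPKM in WT, rose by 0.93 ± 0.06. Nucleolin 1 (NUC1) and NOP56 both rose by 1.55, with errors of 0.06 and 0.07, while nucleolin 2 (NUC2) had −0.38 ± 0.12. Without the pair as a block 21 of the 40 were called higher against 18.2% of all genes, and with any 1 library left out 2 to 13. The count was 2 of 40 when either WT library was left out, where 769 and 836 of 17399 genes were called higher.

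RACK1 is a scaffold protein on the small subunit, and all 3 of its genes rose: RACK1C by 1.90 ± 0.10, RACK1B by 1.34 ± 0.09 and RACK1A, the most abundant, by 0.74 ± 0.09. Of 30 cytosolic translation factors 23 rose, 1 fell and 6 did not pass, with a median of 0.52. Those with the smallest p-values were EF1A-3 (0.99 ± 0.06), the elongation factor 1B gene AT5G19510 (0.94 ± 0.06), PAB8 (1.27 ± 0.09) and EF1A-4 (0.90 ± 0.06). The share of all genes called higher was 49.2%. Without the block 2 of the 30 factors and 1 of the 3 RACK1 genes were called higher against 18.2% of all genes, so the count of factors was then below that share.

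The 20 genes of plastid translation and ribosomal RNA maturation were mixed, with 8 lower, 6 higher and 6 that did not pass, where 26.0% of all genes were lower and 49.2% higher. PSRP1, the stress-linked plastid ribosome factor, went from 185.98 and 102.57 FPKM in WT to 33.09 and 20.15 FPKM in ibm1-3, giving a change of −2.37 ± 0.07. Initiation factor SVR9L1 (−1.55 ± 0.06) and the elongation factors SCO1 (−1.41 ± 0.06) and EF-Tu (−1.05 ± 0.06) fell as well. With size factors 13 of the 20 were called lower against 38.9% of all genes.

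Of 11 genes of TOR and SnRK1 signalling, which tie ribosome production to nutrients and energy, 3 rose, 3 fell and 5 did not pass, a share of rises below the 49.2% of all genes and a share of falls near the 26.0%. The paralogous S6 kinase genes were called in opposite directions: S6K2 was at 42.54 and 37.39 FPKM in WT against 94.77 and 85.1 in ibm1-3 (1.15 ± 0.06), and S6K1 at 79.8 and 68.48 FPKM in WT against 39.63 and 30.07 in ibm1-3 (−1.08 ± 0.07). In neither gene did the genotypes overlap. EBP1, a growth regulator that binds ribosomes, rose by 0.95 ± 0.06, and KIN10, a catalytic subunit of SnRK1, by 0.31 ± 0.07, and at −0.0024 with size factors KIN10 did not pass.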

How the data were processed

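Leaf RNA of WT and ibm1-3 plants was measured in 6 libraries. The submitters' processing notes list Bowtie2 and the TAIR10 build. The counting program and strand setting are not stated in any source used here. Per the file headers, the authors deposited estimated counts (expected counts) and FPKM for high light pair 1. For pair 2 the authors deposited a column headed expression that behaves as FPKM. For low light the authors deposited a signal that equals reads times 1 factor per library, with genes under 15 reads at 0. The deposited log2 ratios, p-values and scores (an adjusted p above 1) of the authors were not used.

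Limma 3.58.1 (trend, R 4.3.3) was run on log2(FPKM + 1) for genes of at least 1 FPKM in 2 libraries, with Benjamini-Hochberg adjustment over 17399 genes. The pair was a block, since each pair is a separately normalized table. Deviations of libraries with the same number correlated at 0.895. The fit had 1 residual and 6.17 prior degrees of freedom. Count tests were planned only if both high light tables held counts, and pair 2 has none. Low light reads were scaled with TMM (edgeR 4.0.16).

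Members were classed from deposited annotation and RefSeq notes. The 4 highest and 4 lowest fold changes per class, the 2 most abundant genes, the paralogs of the 5 most divergent families, low light extremes and up to 4 genes per list were named. RPL23AA, RPL12-A, RPL12-C, RPL9, AT5G63300, RPL4, AT2G43030, AT1G24240, FIB1, NUC2 and CCA1 were added after their values were seen. An item that the rule names is not reported here, though class counts and medians include it. Members and lists were chosen with earlier results of these data known. Of the 285 members, 275 passed the filter. The fit was tested on simulated data. Promoters were read from RefSeq TAIR10.1, in which all 285 members lie and 199 have the same start and end. Markers of floral, guard cell, root and phloem tissue were also listed.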

Additional observations from a re-analysis of the deposited data

Results flagged for a closer look

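For 20 named genes the single low light pair went against both high light pairs, with a counting interval off 0 under each of 3 scalings of the low light reads. The difference between light conditions was not tested, and it rests on 1 library per genotype in low light. Some of these genes were named for these same values, such as AT3G11120 and AT2G40205 for their low ratios in low light. The count of 20 therefore supports no conclusion, and the share of all genes with such opposite signs was not counted. Cytosolic genes that rose after high light and had a negative low light log2 ratio were AT3G11120 (−0.89), AT2G40205 (−0.77), RPS15A (AT1G07770, −0.73), AT3G14600 (−0.57), RPL34 (AT1G69620, −0.56), AT1G27400 (−0.48), AT5G20290 (−0.45), AT5G15200 (−0.41), AT5G27700 (−0.40), AT1G67430 (−0.40), AT4G39200 (−0.39), AT2G34480 (−0.34) and emb2386 (AT1G02780, −0.32). The mitochondrial gene MRPL11 (AT4G35490, −0.41) and the elongation factor gene AT5G19510 (−0.44) had ratios of the same sign. With size factors in high light RPL34 (−0.11), AT5G27700 (−0.0545) and AT4G39200 (−0.0493) were also negative after high light, so their opposite sign depends on the high light scaling. In the opposite direction, the mitochondrial RPS14 (AT2G34520) was lower after high light and had a low light ratio of 0.30. Outside the ribosomal proteins, S6K2 (AT3G08720) had −1.90 in low light against 1.15 after high light, MCM5 (AT2G07690), a replication gene, −1.19 against 0.80, SCO1 (AT1G62750) 0.31 against −1.41 and EF-Tu (AT4G20360) 0.16 against −1.05. MCM5 had only 55 reads in WT and 24 in ibm1-3 in low light, and met the high light filter only through its ibm1-3 libraries.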

How the results depend on the processing

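The pseudocount of 0.1 and the removal of the filter left the higher and lower counts of the cytosolic, plastid, mitochondrial and unplaced classes within 1.5 times their main values, while without the filter 6 cytosolic genes in place of 3 were not called. Without the replicate block, 3161 genes were called higher and 1461 lower, and among them 62 cytosolic, 2 mitochondrial and 22 unplaced bacterial-type genes were higher, 6 plastid genes lower and 20 family sums higher. For the lists without the block, 21 biogenesis genes, 2 translation factors, 2 plastid translation genes, 1 signalling gene and 1 RACK1 gene were higher, and 0, 0, 3 and 1 of the first 4 lists were lower. With size factors the medians were 0.70 (cytosolic), −1.20 (plastid), 0.53 (mitochondrial) and 0.66 (unplaced), and 5, 4, 13 and 6 genes of these 4 lists were lower. Signs turned for RPL34 (−0.11), AT3G02080 (−0.28), AT4G02230 (−0.0781), AT4G33865 (−0.0814), AT4G39200 (−0.0493), AT5G27700 (−0.0545), CDKB2;1 (AT1G76540, −0.0094) and KIN10 (AT3G01090, −0.0024).

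With any 1 high light library left out, which is fitted without the block, 769 to 2480 genes were higher and 473 to 1155 lower. The ranges of calls were 3 to 39 (cytosolic, higher), 0 to 4 (plastid, lower), 1 to 3 (mitochondrial), 3 to 10 (unplaced) and 0 to 5 (family sums), and those of the medians 0.90 to 1.18, −0.97 to −0.55, 0.62 to 1.02 and 0.95 to 1.01. For the lists, 2 to 13 biogenesis genes, 0 to 1 translation factors, 0 to 2 plastid translation genes, 0 signalling genes and 0 to 2 RACK1 genes were higher, and 0, 0, 0 to 3 and 0 were lower. Signs turned in these fits for SUC2 (AT1G22710, −0.13 to 1.17), RPL18AA (AT1G29970, −0.69 to 0.29), RPS14 (AT2G34520, −0.74 to 0.0124), AT3G02080 (−0.25 to 0.33), SCR (AT3G54220, −0.56 to 0.17), AT4G02230 (−0.22 to 0.72), AT4G31985 (−0.14 to 1.04), AT4G33865 (−0.61 to 1.09), AT5G19025 (−0.0913 to 0.82) and AT5G27700 (−0.57 to 1.10).

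Scaled by total reads, the low light medians were 0.0122 (cytosolic), −0.0417 (plastid) and 0.50 (unplaced). Without the 10 most abundant genes of each library, the mean log2 ratio of the high light share was 0.93 (cytosolic) and −0.89 (plastid), and that of the low light cytosolic share −0.0035. With genes of all tables only, the cytosolic value was 1.0016. The cause of these changes was not tested. The number of libraries limits precision, low light has no replicate, and the depth of the second high light pair is unknown.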

Other observations

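Markers of other tissues are given as log2 fold changes. Among guard cell genes after high light, SLAC1 (0.55) and KAT1 (0.40) rose and MYB60 (−0.56) and FAMA (−0.31) fell (limma, adjusted p from 0.0043 to 0.0175), while with size factors 0 of the 5 rose and 2 fell. The phloem genes AHA3 and SUC2 rose by 0.68 and 0.52. Of the root genes, the phosphate transporter PHT1;4 went from 0.86 and 2.16 FPKM in WT to 26.21 and 39.48 FPKM in ibm1-3, while SCR did not pass (−0.19). None of the 6 floral genes passed the filter, and their summed level was 0.86 to 2.10 FPKM in the high light libraries, while in low light they had 0 reads in WT and 99 in ibm1-3, of which 79 were of SEP3. Among the genes of dividing cells, PCNA2 (0.90) and MCM5 (0.80) rose and CDKB2;1 (0.15) did not pass, at no more than 3.27 FPKM in any library. MCM5 met the filter only through its ibm1-3 libraries, at 1.29 and 1.15 FPKM against 0.37 and 0.18 in WT. No conclusion is drawn from its call.

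Members that share only a domain held the lowest value of all. AT1G53560, of the L18ae family, stood at 86.90 and 131.65 FPKM in WT against 17.73 and 31.60 in ibm1-3, giving a log2 fold change of −2.13 ± 0.07. Its relative AT3G14595 had −1.11 ± 0.07, and AT1G54217, another L18ae family gene, 1.84 ± 0.15. These genes were chosen after their values were seen.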
